A study of Mus musculus with 8 samples.

Results

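The Hippo pathway genes followed here are *Yap1* and *Wwtr1* (transcriptional coactivators), *Tead1* and *Tead3* (their DNA-binding partners), *Lats1* and *Lats2* (the kinases that restrain them) and *Ankrd1*, *Amotl2*, *Ctgf* and *Cyr61* (target genes). They were chosen by symbol, as 10 of the 24063 genes in the tables, and are listed there as 17 of 33068 transcripts. Their RNA was measured by RNA-Seq in 8 cultures of mouse tubuloids, which are epithelial structures grown in Matrigel from fragments of kidney tubule. Both groups carried the same genotype, Pkd2fl/fl Pax8rtTA TetOCre mTmG, came from kidneys of postnatal day 7 to 10 by the labels (the study's methods give a younger range), and were kept in medium with growth factors until day 7 of culture. The 4 GDNF cultures, numbered 6, 12, 17 and 22, had received glial cell line-derived neurotrophic factor during a 24 h pulse that was then withdrawn, and the 4 control cultures, numbered 3, 7, 14 and 21, had not. The *Pax8* promoter limits the Cre system to tubule epithelium, and the labels of these cultures name no induction of Cre. The labels do not tie the cultures to separate animals, so p-values measure the spread between cultures.

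In the Hippo pathway, a kinase cascade ends in LATS1 and LATS2, which phosphorylate YAP and TAZ (the product of *Wwtr1*) and hold them out of the nucleus. Unphosphorylated YAP and TAZ enter the nucleus and bind TEAD proteins at target genes such as *Ctgf* and *Cyr61*. In kidney epithelium the pathway is known to respond to cell density, stiffness of the surroundings and the actin cytoskeleton. RNA levels show neither the phosphorylation nor the location of YAP and TAZ.

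TEAD proteins bind a core of 6 bases, GGAATG, which reads CATTCC on the other strand. RefSeq promoter sequences of build GRCm38.p6 were searched on both strands over the 250 bases before the transcription start, to show which of these genes carry the core close to their start. It was present in 12.6% of 32851 promoters of all genes, and 14.4% of 27025 genes held it in at least 1 promoter. Of the 8 genes listed here with a promoter entry, 6 held it, namely *Yap1*, *Wwtr1*, *Tead3*, *Ankrd1*, *Amotl2* and *Cyr61*, while *Lats1* and *Lats2* did not. *Tead1* and *Ctgf* had no entry. The windows below run 5′ to 3′ on the gene's strand, with the core in capitals, and show the targets first and then the coactivators.

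*Ankrd1*, chr19:36119950-36119979, minus strand, 123 bases before the start: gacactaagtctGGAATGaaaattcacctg
*Ankrd1*, chr19:36120037-36120066, minus strand, 210 bases before the start: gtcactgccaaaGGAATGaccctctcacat
*Cyr61*, chr3:145650071-145650100, minus strand, 103 bases before the start: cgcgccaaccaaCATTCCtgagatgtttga
*Amotl2*, chr9:102717727-102717756, plus strand, 65 bases before the start: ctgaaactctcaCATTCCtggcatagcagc
*Yap1*, chr9:8004720-8004749, minus strand, 141 bases before the start: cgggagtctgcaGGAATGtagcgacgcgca
*Wwtr1*, chr3:57576029-57576058, minus strand, 136 or 170 bases before its annotated starts: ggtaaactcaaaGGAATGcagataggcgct

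*Ankrd1* held 2 matches, while *Cyr61* and *Amotl2* held 1 each, and the coactivator genes held the core as well. *Tead3*, whose windows are not shown, held it in 2 of its 3 promoter entries, at 114, 123 and 182 bases before its starts. *Ankrd1* had 1 promoter entry. Distances are counted from the start of a promoter entry, which can differ from the ends of the gene spans given below. For *Amotl2* the window lies inside its span, which begins at 102717091. A match is a description of these letters and was not tested for binding.

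Each culture held between 72991721 and 97490625 transcript counts, in which a read that fits several transcripts of a gene is counted for each. Levels compared between cultures are given as CPM, the count scaled to a common library size with TMM normalization, which corrects for differences in library composition, and levels compared between genes are given as the authors' length-normalized TPM for the transcript with the most counts. TMM factors were 1.07 to 1.11 in GDNF cultures, 0.963 to 0.982 in control cultures 7, 14 and 21, and 0.790 in control culture 3. In TPM, which carries no such factor, 78.5% of the 13569 genes whose mean reached 1 TPM were higher after GDNF, with a median log2 ratio of 0.39. The median log2 fold change over all genes tested was 0.03 after TMM. Cultures were called *Xist* or Y-linked by which had more TPM, *Xist* or the sum of 4 Y-linked genes, and each group held 2 cultures called *Xist* and 2 called Y-linked. These kinds are not exclusive, since GDNF culture 6 and control culture 3, both called *Xist*, also held Y-linked RNA at 6.46 and 1.502 TPM, and *Xist* in control culture 3 was at 12.5 TPM against 52.7 to 68.0 TPM in the others called *Xist*.

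None of the 10 Hippo pathway genes passed the test between GDNF and control cultures (smallest adjusted p = 0.180; the edgeR test is a quasi-likelihood F test, with p adjusted by the Benjamini-Hochberg method over all genes). The test called 0 of all 16557 genes (0%), with a smallest adjusted p of 0.167. At an unadjusted p under 0.05 it held 1 of the 10, *Ankrd1*, beside 22.1% of all genes, with 9.25% higher and 12.9% lower after GDNF. DESeq2 called 0 of the 10 and 1346 of all genes (8.13%), with *Tead3* left without an adjusted p, and limma-voom called 0 of the 10 and 0 of all genes. The fitted log2 fold change was above 0 for 4 of the 10 and below 0 for 6, with a median of −0.08, while it was above 0 for 52.5% of all genes. The split was 1 above and 9 below with an offset for transcript length, and 8 above and 2 below with library sizes only. In CPM the groups overlapped for all 10, whereas 13.2% of all genes had groups that did not overlap, 6.99% with the GDNF cultures higher and 6.26% with them lower.

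**Figure D1:**
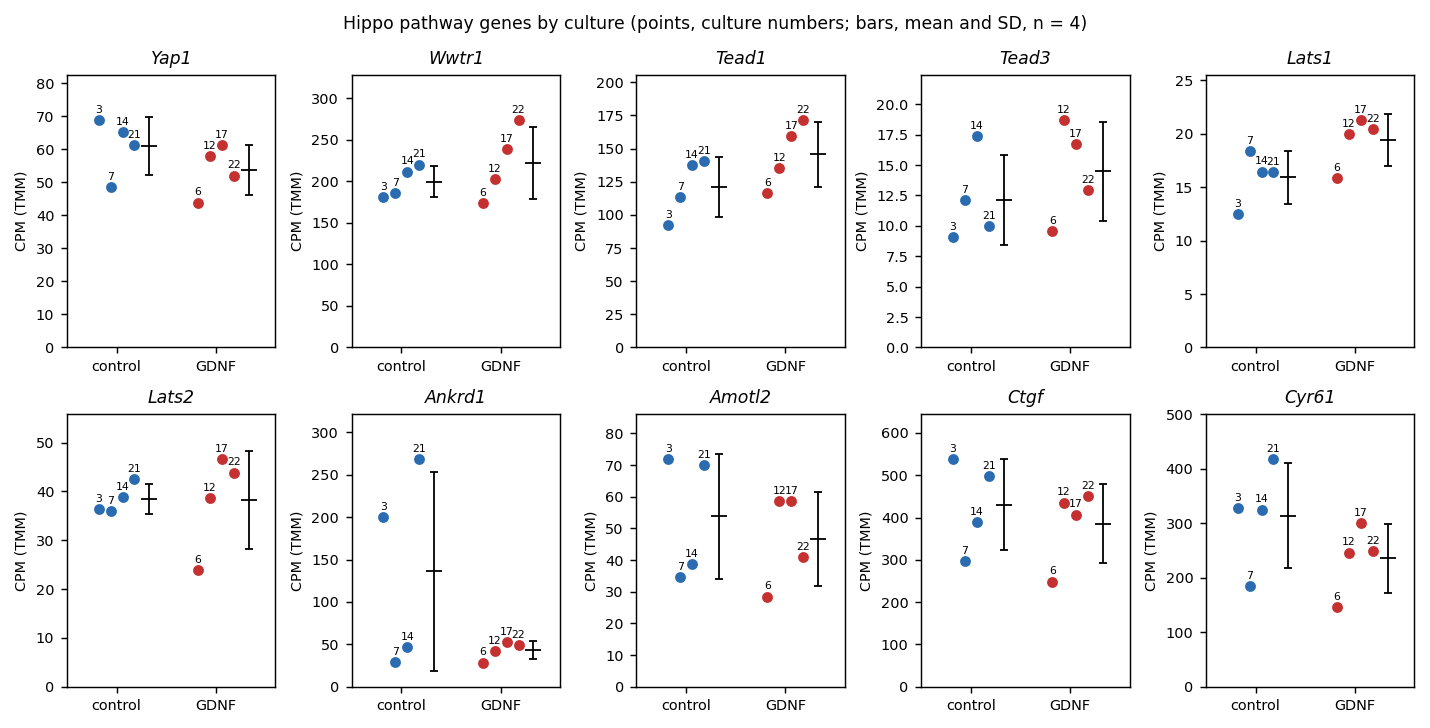
TMM-normalized CPM of each gene (vertical axes from 0) in the 4 control cultures (blue) and the 4 GDNF cultures (red), with the culture number above each point and the mean and SD as black bars. The groups overlap in every panel, and for *Ankrd1* control cultures 3 and 21 stand far above the other 6 cultures.

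The genes covered a wide range of levels in TPM. *Ctgf* was highest, at 269.5 ± 65.7 TPM (SD, n = 4) in control cultures, followed by *Cyr61* at 237 ± 91.5 TPM and *Ankrd1* at 116 ± 108 TPM. *Wwtr1*, at 32.4 ± 7.64 TPM, lay above *Amotl2*, at 19.2 ± 7.04 TPM. *Yap1* was at 11.1 ± 1.83 TPM and *Lats2* at 10.1 ± 2.24 TPM. The lowest were *Tead1* at 6.499 ± 2.06 TPM, *Lats1* at 3.42 ± 0.957 TPM and *Tead3* at 2.27 ± 0.852 TPM. Every gene was above its next neighbour in all 8 cultures, with the exception of *Ankrd1* over *Wwtr1* and *Yap1* over *Lats2*, where the order held in 5 of 8 cultures. The ranges of neighbours over the 8 cultures overlapped for each of the 9 pairs.

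**Figure D2:**
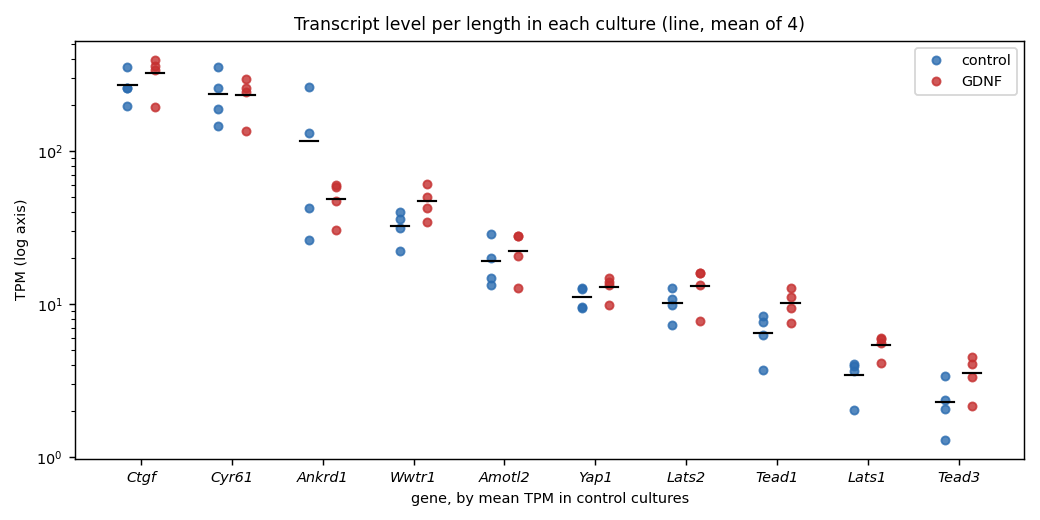
TPM of each gene on a log axis in control (blue) and GDNF (red) cultures, ordered by the control mean, with a line at the mean of 4 cultures. The 3 secreted or nuclear target genes *Ctgf*, *Cyr61* and *Ankrd1* lie at the top in controls, and *Tead3* and *Lats1* at the bottom.

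*Yap1*, on chromosome 9 from 7931999 to 8004638 in GRCm38, encodes the coactivator YAP. Its level was 43.9, 58.0, 61.2 and 52.0 CPM in GDNF cultures 6, 12, 17 and 22. In control cultures 3, 7, 14 and 21 it was 68.9, 48.6, 65.2 and 61.3 CPM. In CPM the lowest value was in a GDNF culture and the highest in a control culture, with the rest interleaved. In TPM the lowest was in control culture 7, at 9.36 TPM, and the highest in GDNF culture 17, at 14.7 TPM. Its log2 fold change was −0.18 ± 0.16 (SE), with an adjusted p of 0.517 in the edgeR quasi-likelihood test (Benjamini-Hochberg). Of its exonic bases, 116 are shared with an antisense transcript, *Gm20416*, and the library kit does not keep strand.

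*Wwtr1*, on chromosome 3 from 57455644 to 57575910, encodes TAZ, the paralog of YAP. It was at 174, 202, 239 and 274 CPM in GDNF cultures 6, 12, 17 and 22 and at 181, 186, 212 and 220.1 CPM in control cultures 3, 7, 14 and 21. GDNF cultures held both the lowest and the highest value. In the edgeR fit the log2 fold change was 0.15 ± 0.17 (SE; edgeR quasi-likelihood test, Benjamini-Hochberg adjusted p = 0.604). In TPM, *Wwtr1* exceeded *Yap1* in every culture, by a ratio of 2.31 to 4.61. This ratio was 3.64 ± 0.673 (SD, n = 4) in GDNF and 2.92 ± 0.456 (SD, n = 4) in control cultures (exact permutation test, two-sided, p = 0.114, or 0.343 after Benjamini-Hochberg adjustment over 6 ratios). These ratios within a culture were chosen after the values were seen, and all 6 were tested on log2 of the ratio.

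*Tead1*, on chromosome 7 from 112679356 to 112906784, encodes a TEAD factor, the DNA-binding partner through which YAP and TAZ act. It was at 117, 135, 159.6 and 172 CPM in GDNF cultures 6, 12, 17 and 22 and at 92.4, 113, 137 and 141 CPM in control cultures 3, 7, 14 and 21. The 2 highest values were in GDNF cultures and the 2 lowest in controls, and of the other 4 the GDNF cultures 6 and 12 lay below controls 14 and 21. Within the pairs of cultures called *Xist* and called Y-linked, as set out above, both GDNF cultures lay above both controls. An exact permutation test within kinds gave p = 0.0556 (two-sided, n = 4), the smallest it can give. In CPM this test gave larger p for the other Hippo genes. In TPM it reached the same smallest p for *Tead1*, *Yap1*, *Wwtr1* and *Lats1*. These p-values were not adjusted over the genes, and the share of all genes separated in this way was not counted. GDNF culture 6 and control culture 3, both called *Xist*, also held Y-linked RNA. The fitted log2 fold change of *Tead1* was 0.27 ± 0.18 (SE), with an adjusted p of 0.395 in the edgeR quasi-likelihood test (Benjamini-Hochberg). With an offset for transcript length it was −0.19, and the *Tead1* transcript with the most counts is 9962 bases long.

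*Tead3*, on chromosome 17 from 28331671 to 28350805, encodes a second TEAD factor and was the least abundant of the 10 genes, with 223 to 628 counts per culture for its main transcript. Its level was 9.58, 18.7, 16.7 and 12.9 CPM in GDNF cultures 6, 12, 17 and 22 and 9.10, 12.1, 17.4 and 9.99 CPM in control cultures 3, 7, 14 and 21. High and low values occurred in both groups. The change on the log2 scale was 0.25 ± 0.27 (SE; edgeR quasi-likelihood test, Benjamini-Hochberg adjusted p = 0.595). The ratio of *Tead1* to *Tead3* in TPM was 3.04 ± 0.781 in GDNF and 2.96 ± 0.769 in control cultures (SD, n = 4; exact permutation test, two-sided, p = 0.943).

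*Lats1*, on chromosome 10 from 7681200 to 7716461, encodes a kinase that phosphorylates YAP and TAZ. It was at 15.8, 20.0, 21.3 and 20.5 CPM in GDNF cultures 6, 12, 17 and 22 and at 12.5, 18.4, 16.5 and 16.5 CPM in control cultures 3, 7, 14 and 21. GDNF cultures 12, 17 and 22 lay above all controls and GDNF culture 6 among them. The log2 fold change was 0.28 ± 0.17 (SE; edgeR quasi-likelihood test, Benjamini-Hochberg adjusted p = 0.349), and −0.072 with the offset for transcript length.

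In TPM *Lats1* was the only one of the 10 genes whose groups did not overlap, beside 21.2% of all genes, of which nearly all, or 20.6% of all genes, had the GDNF cultures higher. It was at 4.10 to 6.003 TPM in GDNF and 2.01 to 4.08 TPM in control cultures, or 5.38 ± 0.880 against 3.42 ± 0.957 TPM (SD, n = 4; exact permutation test, two-sided, p = 0.0286, the smallest that 70 assignments allow). In CPM the groups overlapped, and the difference was within their spread (two-sided exact permutation test, n = 4, p = 0.114). Mean TPM was higher after GDNF for 8 of the 10 genes, beside 78.5% of the 13569 genes counted above.

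*Lats2*, on chromosome 14 from 57689662 to 57746212, encodes the paralog of LATS1 and is itself a known target of YAP and TAZ. It was at 23.9, 38.6, 46.6 and 43.8 CPM in GDNF cultures 6, 12, 17 and 22. In control cultures 3, 7, 14 and 21 it was at 36.3, 35.9, 38.8 and 42.5 CPM. The controls lay close together and inside the range of the GDNF cultures, of which culture 6 was lowest. The gene's log2 fold change was −0.01 ± 0.20 (SE; edgeR quasi-likelihood test, Benjamini-Hochberg adjusted p = 0.990).

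Without GDNF culture 6 the log2 fold change of *Lats2* was 0.16. Its long transcript of 5191 bases held 1991 to 4039 counts per culture and a short one of 904 bases held 223 to 496. The annotation places 2955 of its exonic bases also in *Gm49361* on the same strand, so its counts are uncertain to that extent. In TPM, *Lats2* exceeded *Lats1* in every culture, with a ratio of 2.41 ± 0.376 in GDNF and 3.05 ± 0.498 in control cultures (SD, n = 4; exact permutation test, two-sided, p = 0.114, or 0.343 after Benjamini-Hochberg adjustment over the 6 ratios).

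*Ankrd1*, on chromosome 19 from 36111965 to 36119844, encodes an ankyrin repeat protein of muscle and nucleus and is widely used as a readout of YAP and TAZ activity. It was at 28.6, 41.6, 52.8 and 48.9 CPM in GDNF cultures 6, 12, 17 and 22. In control cultures 3, 7, 14 and 21 it was at 200.5, 28.8, 47.0 and 268 CPM. Control cultures 7 and 14 lay within the range of the GDNF cultures, and control cultures 3 and 21 lay far above every other culture. The highest control was 9.32 times the lowest, against 1.85 times among GDNF cultures.

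Mean *Ankrd1* was 43.0 ± 10.6 CPM in GDNF and 136 ± 117 CPM in control cultures (SD, n = 4; exact permutation test, two-sided, p = 0.314). In the edgeR fit the log2 fold change was −1.66 ± 0.61 (SE), with an unadjusted p of 0.0221 and an adjusted p of 0.180 in the edgeR quasi-likelihood test (Benjamini-Hochberg). Over the 17 alternative fits the adjusted p lay between 0.0853 (DESeq2) and 0.508 (limma-voom). Without control culture 21 the log2 fold change was −1.12 (unadjusted p = 0.083 in edgeR's test), without control culture 3 it was −1.42 (unadjusted p = 0.063) and without GDNF culture 6 it was −1.51 (unadjusted p = 0.057). It was −2.001 without control culture 7 (unadjusted p = 0.0030) and −1.95 without control culture 14 (unadjusted p = 0.0061). In limma-voom with quality weights it was −0.69. The means were lower after GDNF among the cultures called *Xist*, 35.1 against 115 CPM, and among those called Y-linked, 50.8 against 158 CPM, and each pair of controls held 1 of the high cultures.

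Some other genes were also highest in control cultures 3 and 21. The summed level of 11 epithelial markers was 4181 and 4050 CPM there, 1583 CPM in control culture 7, 642 CPM in control culture 14 and 1103 to 1773 CPM in GDNF cultures. The keratin genes *Krt8* and *Krt18* were the largest parts of this sum in control cultures 3 and 21. *Krt8* was at 1041 and 1315 CPM there and between 112 and 285 CPM elsewhere. *Krt18* was at 1074 and 1216 CPM there and between 116 and 366 CPM elsewhere. Control cultures 3 and 21 were the 2 highest for 8 of the 11 epithelial markers but not for *Epcam*, *Pax8* and *Pax2*, of which *Pax8* and *Pax2* were highest in GDNF culture 6, at 151 and 12.02 CPM. The summed level of 11 actin and serum response factor target genes was 17377 and 21139 CPM in control cultures 3 and 21 and between 8144 and 12609 CPM in the other 6. This sum is mostly *Tpm1* and *Actb*, and for 4 of the 11 genes, *Cnn2*, *Tpm1*, *Actb* and *Actg1*, those controls were the 2 highest. *Acta2*, *Tagln*, *Cnn1* and *Myl9* were highest in control culture 14, for example *Acta2* at 1031 CPM there and 203 CPM in control culture 3, and *Flna* was highest in GDNF cultures 12, 17 and 22. Bulk RNA cannot tell fewer cells of a type from less RNA per cell, and the part of these genes in the *Ankrd1* values was not tested.

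The summed level of 9 stromal markers was 565 and 1229 CPM in control cultures 3 and 21, 1385 and 3402 CPM in control cultures 7 and 14, and 476 to 2427 CPM in GDNF cultures. *Cdh1*, *Epcam* and *Pax8*, which define tubule epithelium, were detected in all 8 cultures, and so were the stromal genes *Col1a1* and *Pdgfrb*. Podocyte markers summed to 55.1 to 242 CPM in GDNF and 59.2 to 257 CPM in control cultures, with *Nphs1* at 0 in control culture 3. Endothelial markers summed to 18.6 to 45.5 and 23.8 to 61.0 CPM, with *Cdh5* and *Tek* at 0 in control culture 3. Most of this sum was *Emcn*, at 17.1 to 41.7 CPM in GDNF and 22.7 to 50.6 CPM in control cultures. Immune markers summed to 9.30 to 23.5 and 6.75 to 25.3 CPM, with *Cd52* at 0 in control culture 7. The markers tested were 11 epithelial, 9 stromal, 4 endothelial, 3 immune and 5 podocyte genes. None of them passed the adjusted threshold in edgeR, and DESeq2 called *Cldn4* (adjusted p = 0.044) and *Lum* (adjusted p = 0.022), beside 8.13% of all genes. At an unadjusted p under 0.05 in edgeR, *Cldn4*, *Krt8* and *Lum* were lower and *Tek* higher after GDNF, beside 22.1% of all genes in either direction.

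*Amotl2*, on chromosome 9 from 102717091 to 102733418, encodes an angiomotin protein that binds YAP and is induced by it. It was at 28.5, 58.7, 58.6 and 41.0 CPM in GDNF cultures 6, 12, 17 and 22. The controls 3, 7, 14 and 21 were at 71.8, 34.6, 38.8 and 70.03 CPM. In CPM the 2 highest values were again in control cultures 3 and 21, but they exceeded those of GDNF cultures 12 and 17 by less than the range of either group. In TPM, control culture 3 was at 20.0 TPM, below the 28.0 TPM of GDNF cultures 12 and 17. The fitted log2 fold change was −0.20 ± 0.30 (SE; edgeR quasi-likelihood test, Benjamini-Hochberg adjusted p = 0.715).

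*Ctgf*, named *Ccn2* in RefSeq and located on chromosome 10 from 24595442 to 24598683, encodes connective tissue growth factor, a secreted matricellular protein. It was at 249, 436, 407 and 451 CPM in GDNF cultures 6, 12, 17 and 22. The controls 3, 7, 14 and 21 were at 538, 298, 389 and 497 CPM. In CPM, control cultures 3 and 21 were the highest and GDNF culture 6 the lowest. In TPM, GDNF culture 22 was highest, at 397 TPM, with control cultures 3 and 21 at 261 and 358 TPM. The change on the log2 scale was −0.16 ± 0.24 (SE; edgeR quasi-likelihood test, Benjamini-Hochberg adjusted p = 0.718), and it was 0.00080 without GDNF culture 6. An antisense transcript, *Gm15270*, shares 665 of its exonic bases and cannot be told apart in these libraries.

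*Cyr61*, named *Ccn1* in RefSeq and located on chromosome 3 from 145646971 to 145649985, encodes a secreted protein of the same family. It was at 147, 246, 300.02 and 249 CPM in GDNF cultures 6, 12, 17 and 22. The controls 3, 7, 14 and 21 were at 328, 184, 325 and 417 CPM. In CPM, controls 3, 14 and 21 lay above all GDNF cultures and control culture 7 below 3 of them. In TPM only control culture 21, at 356 TPM, lay above all GDNF cultures. The means were 233 ± 69.0 TPM in GDNF and 237 ± 91.5 TPM in control cultures (SD, n = 4; exact permutation test, two-sided, p = 0.914). The log2 fold change was −0.41 ± 0.27 (SE; edgeR quasi-likelihood test, Benjamini-Hochberg adjusted p = 0.388). It was −0.60 without control culture 7, −0.24 without GDNF culture 6, −0.19 with library sizes only and −0.17 in limma-voom.

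The 4 target genes were compared within each culture by their ratio to *Ctgf* in TPM. The ratio of *Amotl2* to *Ctgf* was 0.0694 ± 0.0135 in GDNF and 0.0702 ± 0.0106 in control cultures (SD, n = 4; exact permutation test, two-sided, p = 0.886). That of *Cyr61* to *Ctgf* was 0.724 ± 0.101 and 0.860 ± 0.152 (exact permutation test, p = 0.171, or 0.343 after Benjamini-Hochberg adjustment over 6 ratios). The ratio of *Ankrd1* to *Ctgf* was 0.130 to 0.177 in GDNF cultures and 0.131 and 0.164 in control cultures 7 and 14, and it was 0.507 and 0.734 in control cultures 3 and 21. The ratio of *Amotl2* to *Ctgf* in control cultures 3, 7, 14 and 21 was 0.0765, 0.0666, 0.0571 and 0.0807, within the GDNF range of 0.0521 to 0.0826. None of the 6 ratios passed the test between the groups (smallest exact permutation p after Benjamini-Hochberg adjustment = 0.343).

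**Figure D3:**
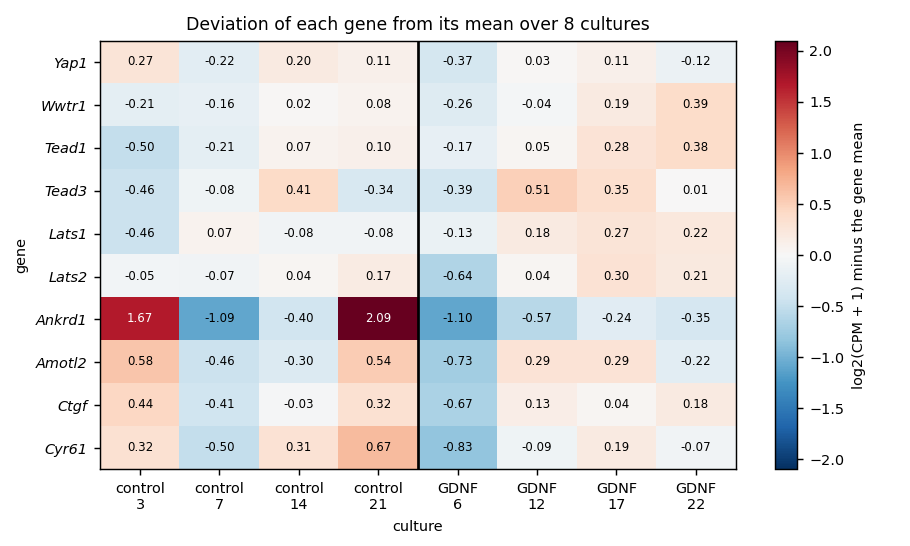
Deviation of log2(CPM + 1) of each gene from its mean over the 8 cultures, with control cultures left and GDNF cultures right of the line and the value printed in each cell. *Ankrd1* ranges from −1.10 to 2.09, and GDNF culture 6 is below the mean for all 10 genes.

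In CPM, GDNF culture 6 was the lowest of the 8 cultures for 7 of the 10 genes, *Yap1*, *Wwtr1*, *Lats2* and the 4 target genes. Control culture 3, which had the smallest TMM factor, was highest in CPM for *Yap1*, *Amotl2* and *Ctgf* and lowest for *Tead1*, *Tead3* and *Lats1*. In TPM it was highest for none of them, with *Yap1*, *Amotl2* and *Ctgf* at 9.63, 20.0 and 261 TPM. Their highest values were 14.7 TPM (GDNF culture 17), 28.9 TPM (control culture 21) and 397 TPM (GDNF culture 22). The summed level of the 4 target genes was 453 CPM in GDNF culture 6 and 782, 819 and 789 CPM in GDNF cultures 12, 17 and 22. In control cultures 3, 7, 14 and 21 it was 1138, 546, 800.1 and 1253 CPM. In TPM the sum was 372, 680, 722 and 736 in GDNF cultures 6, 12, 17 and 22. It was 602, 384, 576 and 1005 TPM in control cultures 3, 7, 14 and 21. The spread among controls thus covered the spread among GDNF cultures but for culture 6. GDNF culture 6 was also the lowest of the 8 cultures for the sum of stromal markers, and the part of this in its values was not tested.

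**Figure D4:**
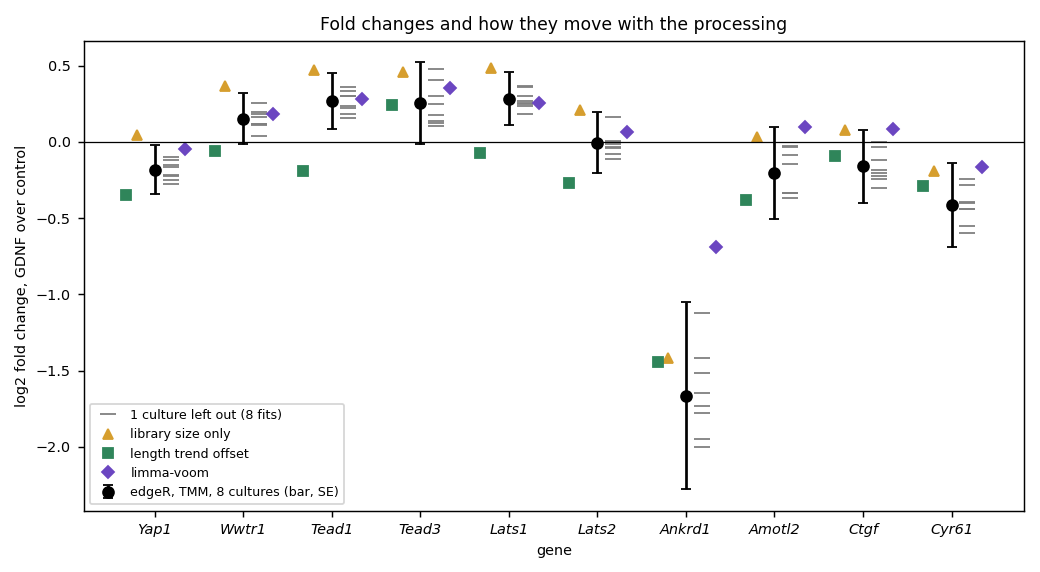
Log2 fold change, GDNF over control, of each gene in edgeR with TMM (black, bar = SE), with library sizes only (yellow), with an offset for transcript length (green), in limma-voom (purple) and with each culture left out in turn (grey dashes, 8 fits). *Ankrd1*, at −1.66, is below 0 under every setting drawn, from −2.001 to −0.69, and most other genes have a setting on each side of 0.

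Other genes of the pathway were followed through lists of its inputs, partners and outputs, 82 genes in all, of which 80 were in the tables and 77 were tested. The test called 0 of the 77 after adjustment, beside 0% of all genes. At an unadjusted p under 0.05 there were 9 of the 77 (11.7%), 7 higher and 2 lower after GDNF, beside 22.1% of all genes. The median log2 fold change was 0.02 for the 77 genes and 0.03 for all genes. DESeq2 called 4 of the 77 (5.19%), *Taok2*, *Scrib*, *Asap1* and *Ptpn14*, beside 8.13% of all genes. Groups that did not overlap in CPM, named below for some list genes, occurred for 13.2% of all genes.

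Among 13 upstream kinases and adaptors, which include the core genes *Stk3*, *Stk4*, *Sav1* and *Nf2*, the median log2 fold change was 0.04 and 1 gene had an unadjusted p under 0.05. This was *Taok2*, a kinase that activates the cascade, at 119.6 ± 20.5 CPM in GDNF and 70.2 ± 21.8 CPM in control cultures (SD, n = 4), with groups that did not overlap. Its log2 fold change was 0.77 ± 0.24 (SE; edgeR quasi-likelihood test, Benjamini-Hochberg adjusted p = 0.167), and 0.54 with the length offset. *Nf2*, which encodes the scaffold merlin, was at 174 ± 15.1 and 150 ± 5.72 CPM (log2 fold change 0.21; edgeR quasi-likelihood test, Benjamini-Hochberg adjusted p = 0.324), or −0.004 with the length offset, and is named here after its value was seen.

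The list of 6 TEAD partners and cofactors held 4 tested genes, with a median of −0.04 and none under the unadjusted threshold. *Vgll1* and *Vgll2* were too low to test, each with reads in 2 of 8 cultures. *Tead2*, another TEAD factor, was at 101 ± 7.15 CPM in GDNF and 89.5 ± 10.4 CPM in control cultures (log2 fold change 0.18 ± 0.13; edgeR quasi-likelihood test, Benjamini-Hochberg adjusted p = 0.449). Among 5 adaptors that bind YAP, TAZ or LATS kinases, the median was 0.21. *Limd1*, which encodes a LIM protein that binds LATS, had a log2 fold change of 0.35 ± 0.15 with groups that did not overlap (edgeR quasi-likelihood test, Benjamini-Hochberg adjusted p = 0.202), and 0.14 with the length offset.

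Of 12 tested polarity and atypical cadherin genes, 3 were higher and 0 lower after GDNF at an unadjusted p under 0.05. Over all genes, 9.25% were higher and 22.1% were under this threshold in either direction. These 12 genes feed into the cascade at the membrane, and their median was 0.20. *Scrib*, a basolateral scaffold gene, was at 19.2 ± 2.06 CPM in GDNF and 13.2 ± 1.47 CPM in control cultures (SD, n = 4), with a log2 fold change of 0.54 ± 0.16 (edgeR quasi-likelihood test, Benjamini-Hochberg adjusted p = 0.167). The other two, *Pard3* at 0.46 and *Dlg5* at 0.56, overlapped between groups. With the length offset the values of *Scrib*, *Pard3* and *Dlg5* were 0.27, 0.18 and 0.21, and the median of the 12 genes was −0.18.

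Among 17 other target genes of YAP and TAZ, 2 were higher and 0 lower after GDNF at an unadjusted p under 0.05. The shares over all genes were 9.25% higher and 22.1% in either direction. The median of the 17 was 0.12. The phosphatase gene *Ptpn14*, whose product also binds YAP, was at 46.5, 41.4, 42.1 and 40.6 CPM in GDNF cultures 6, 12, 17 and 22 and at 26.3, 29.2, 25.3 and 33.6 CPM in control cultures 3, 7, 14 and 21. All GDNF cultures lay above all controls, with a log2 fold change of 0.58 ± 0.14 (SE; edgeR quasi-likelihood test, Benjamini-Hochberg adjusted p = 0.167), which was 0.10 with the length offset. *Asap1*, a regulator of Arf GTPases, also did not overlap, with a log2 fold change of 0.62 ± 0.19 (adjusted p = 0.167 in the edgeR quasi-likelihood test (Benjamini-Hochberg)) and 0.35 with the length offset. The median of this list was −0.07 with the length offset and −0.08 without GDNF culture 22.

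Of the other CCN genes, relatives of *Ctgf* and *Cyr61*, *Wisp1* was at 35.6 ± 13.9 CPM in GDNF and 30.3 ± 10.6 CPM in control cultures (SD, n = 4), and *Nov*, *Wisp2* and *Wisp3* were under 1 CPM in every culture. Of the 4, 3 were tested, with a median of 0.63 and no unadjusted p under 0.05, and *Wisp3*, with the smallest p, was at 0.483 ± 0.109 and 0.313 ± 0.157 CPM (SD, n = 4). The median of 11 actin and serum response factor target genes was −0.44, and it was 0.09 without control culture 14. *Cnn2*, which encodes a calponin, had the smallest p among them, with a log2 fold change of −0.61 ± 0.22 (SE; edgeR quasi-likelihood test, Benjamini-Hochberg adjusted p = 0.173). Among 12 immediate early genes the median was −0.05, and *Fosl1*, of the AP-1 family that often binds beside TEAD, had a log2 fold change of −0.80 ± 0.34 (SE; edgeR quasi-likelihood test, Benjamini-Hochberg adjusted p = 0.212), with 25.1 and 33.5 CPM in control cultures 3 and 21 and 9.92 to 15.002 CPM elsewhere.

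**Figure D5:**
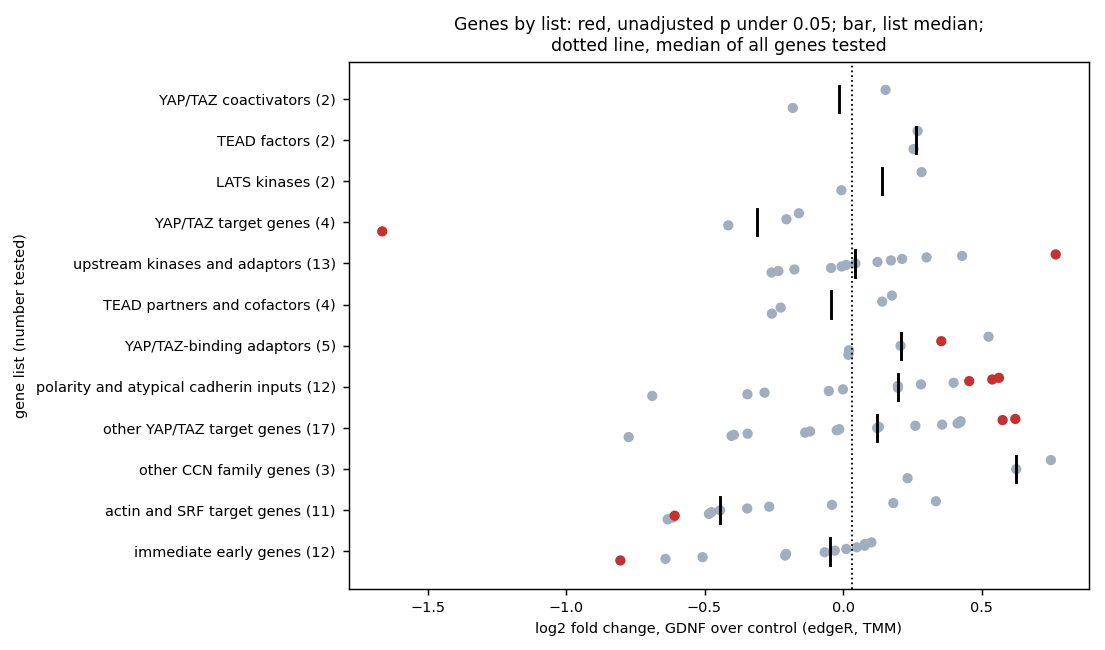
Log2 fold change, GDNF over control, of each tested gene by list (number tested in brackets), with genes at an unadjusted p under 0.05 in red, the list median as a bar and the median of all genes, 0.03, as a dotted line. *Ankrd1* lies farthest left at −1.66, and the red points of the input lists lie on the right.

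The genes closest to some of the Hippo genes were found by the mean absolute difference of centred log2(CPM + 1) over the 8 cultures, among the 11451 genes whose mean reached 5 CPM. For *Yap1* they were *Mob3a* (0.0514), *Dcaf12* (0.0566) and *Szrd1* (0.0611), against a median of 0.289 over all genes. For *Lats2* they were *Pank3* (0.0691), *Sik3* (0.0734) and *Tbl1x* (0.0747), against 0.323. For *Ctgf* they were *Gls2* (0.108), *Ier5* (0.111) and *Midn* (0.111), against 0.370. For *Ankrd1*, added after its values were seen, the closest were *Sdcbp2* (0.262), *Plau* (0.303) and *Aif1l* (0.322), against 0.932. All 3 shared its high values in control cultures 3 and 21, where *Plau*, which encodes urokinase, was at 31.1 and 55.1 CPM against 5.97 to 13.6 CPM elsewhere. All profiles rest on the same 8 libraries, with their depth and composition.

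For none of the 10 genes did the change after GDNF pass a test of its difference between cultures called *Xist* and called Y-linked, of which GDNF culture 6 and control culture 3 held both RNAs (interaction term of the edgeR quasi-likelihood test, smallest unadjusted p = 0.347, for *Lats2*).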

How the data were processed

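RNA was measured in 4 GDNF and 4 control tubuloid cultures, grouped by their titles, which share no culture numbers. The deposited counts are whole reads per RefSeq transcript, made by the authors with 75 bp paired-end reads, STAR and featureCounts on mm10. SMART-Seq v4 libraries select poly-A RNA and do not keep strand. The deposited FPKM and TPM values were scaled by the authors to transcript length and library total. FPKM served only to recover lengths. Versions of the authors' tools are not given in the sources used here, nor is the lane of each culture.

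Counts were summed per symbol and tested in edgeR 4.0.16 under R 4.3.3 (filterByExpr, TMM, glmQLFit and glmQLFTest), with Benjamini-Hochberg adjustment over 16557 genes and an adjusted p of 0.05. SE is the absolute log2 fold change over the square root of the F statistic. All 10 Hippo genes passed the filter. TPM was compared by exact permutation over 70 assignments for each gene alone, unadjusted over the 10 genes. Ratios of TPM were permuted the same way on the log2 scale, while their means and SDs are of the ratios themselves. Alternatives included DESeq2 1.42.0, limma 3.58.1 (voom with quality weights), other size factors, library size only, splines of transcript length (5 degrees of freedom) as an offset, 1 transcript per gene, no filter, and leaving out each culture. Scripts were tested on simulated data. Counting error is small at these depths beside the spread between cultures.

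The genes and lists were chosen with earlier results of these data known. Named were all 10 genes, the list genes at an unadjusted p under 0.05 (at most 5 per list, or the smallest p), and the 3 genes closest in profile to *Yap1*, *Ctgf* and *Lats2*. Promoters come from RefSeq and overlaps of exons from GENCODE. Figures and permutation tests used Python 3.11.15.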

Additional observations from a re-analysis of the deposited data

How the results depend on the processing

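No paired analysis was possible because the groups share no culture numbers. Under all 17 alternatives, none of the 10 Hippo genes passed an adjusted p of 0.05, and 156 of 170 log2 fold changes kept their direction. DESeq2 called 1346 genes, 4 of them genes of the pathway lists, where edgeR called 0 and 0, and the other alternatives called 0. The count of 1 gene by the exact test of TPM became 0 with CPM in place of TPM and 0 within kinds of culture, where p cannot go under 0.0556.

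Directions turned as follows. With the length offset, *Wwtr1* was −0.061, *Tead1* −0.19 and *Lats1* −0.072. With library size only, which moved the median of all genes to 0.25, *Yap1* was 0.045, *Lats2* 0.21, *Amotl2* 0.034 and *Ctgf* 0.078. In limma-voom, *Lats2* was 0.067, *Amotl2* 0.10 and *Ctgf* 0.083, and with upper-quartile factors *Lats2* was 0.023. Leaving out 1 culture gave *Lats2* from −0.12 to 0.16, including 0.0043 without control culture 21, and *Ctgf* from −0.30 to 0.00080. In CPM the difference of means was −7.21 CPM for *Yap1*, −0.158 CPM for *Lats2*, −7.12 CPM for *Amotl2* and −45.0 CPM for *Ctgf*, all positive in TPM. These genes were also above 0 with library size only. With TMM and 1 transcript per gene their log2 fold changes stayed below 0, at −0.18, −0.006, −0.20 and −0.16. The cause was not tested.

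The count of Hippo genes at an unadjusted p under 0.05 was 1, but 0 in limma-voom and without GDNF culture 6, control culture 3 or control culture 21, and 2 with library size only or without control culture 7. That of pathway list genes was 9, but 3 with the length offset, 19 with library size only and 5 to 14 with 1 culture left out. Over all genes it was 3665, and with 1 culture left out it was 2192 (without GDNF culture 22) to 4104 (without control culture 7). A group of 4 cultures limits what these values can show.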
